A study of Danio rerio with 16 samples.

Results

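The Nr2f genes encode the COUP transcription factors, and 21 of the 9466 peaks that differed in accessibility between HE and ARE lay nearest to 1 of them. A peak was counted when the nearest gene symbol of the deposited annotation was nr2f1a, nr2f1b, nr2f2, nr2f5, nr2f6a or nr2f6b. The rule used no measured value, but a peak is in the lists only because the authors had called it different between the populations. Of the 6 genes, 4 had at least 1 such peak, and nr2f5 and nr2f6a had none. In all, 5023 genes had a listed peak. Their share of all annotated genes was not counted, so that 4 of 6 cannot be called many or few.

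Accessibility was profiled by ATAC-seq, in which the Tn5 transposase inserts sequencing adapters into accessible DNA. Cells were sorted by FACS from whole wild-type (Wt) TgBAC(runx1P2:Citrine);Tg(kdrl:mCherry) embryos of the zebrafish at 28 to 30 hpf, in which a runx1 BAC drives Citrine and the kdrl promoter drives mCherry in endothelium. DP-R1hi cells carried mCherry and high Citrine and are labelled haemogenic endothelium (HE), the floor of the dorsal aorta from which blood stem cells arise. DP-R1lo cells carried mCherry and low Citrine, are labelled aortic endothelium, and are called ARE (aortic roof endothelium) in the study, which also counts sprouting inter-somitic vessels among them. The series holds 16 libraries, 3 each of DP-R1hi, DP-R1med, DP-R1lo, SP-kdrl and DN cells and 1 of genomic DNA, and the values here cover DP-R1hi and DP-R1lo alone. SP-kdrl cells, the non-aortic endothelium that includes the cardinal vein, have no values in these lists and were not analysed here.

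COUP factors are orphan nuclear receptors, which bind DNA as homodimers or together with retinoid X receptors and mostly act as repressors. In the mouse, Nr2f2 (COUP-TFII) holds venous identity in place by keeping Notch signalling off in vein endothelium. In zebrafish, nr2f2 and nr2f1b take part in lymphatic and venous development, and nr2f1a is needed for atrial identity in the heart.

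For each peak the lists give 1 value per population, the authors' mean of normalized reads over the replicates kept, on a log2 scale. Below, a level is this mean, and a difference is the level in DP-R1hi minus that in DP-R1lo, so that a negative difference means a peak more open in DP-R1lo. No value per replicate is listed, so that no difference here has an error or a test, and n is 1 mean per population. The lowest level listed was -0.14 for DP-R1hi and -0.27 for DP-R1lo. The low levels fell on a fixed grid that can be read as small numbers of reads. In DP-R1hi, the 16 lowest levels all equalled whole numbers of reads in 2 libraries, within 0.006 on the log2 scale, when 1 read added 0.409 normalized reads to the mean in one library and 0.499 in the other. These are the best of 29 pairs of steps that matched all 16 levels, with a smaller step of 0.408 to 0.41. The fit took the lowest level as 1 read in each library (0.908 normalized reads), so that this level matched by construction. The same was assumed in DP-R1lo, and all read counts below rest on it. A true read cannot be told apart from a minimum set to 1. Reads here are those in the authors' counts, and whether genomic DNA reads had been subtracted from them is not given in the sources used. In DP-R1lo, 16 of 16 lowest levels matched steps of 0.404 and 0.425, the best of 49 such pairs, with a smaller step of 0.402 to 0.406. Where a level is at the lowest value, the difference is set by that value and is not given as a fold.

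Of the 21 Nr2f peaks, 1 was more open in DP-R1hi and 20 were more open in DP-R1lo. Among all 9466 listed peaks, 40.8% were more open in DP-R1hi and 59.2% in DP-R1lo. Each of the 4 genes with peaks had a majority in DP-R1lo, with 0 and 9 peaks at nr2f1a, 0 and 2 at nr2f1b, 1 and 5 at nr2f2, and 0 and 4 at nr2f6b. The median difference over the 21 peaks was -4.08, against -1.89 over all listed peaks. Among peaks more open in DP-R1lo alone, the medians were -4.28 for the Nr2f genes and -3.90 for the whole list. An absolute difference of at least 1 was reached by 20 of the 20 peaks more open in DP-R1lo (98.5% of the whole list of that direction), and one of at least 2 by 19 of 20 (82.7%). As peaks of 1 gene share a locus, the 21 peaks are not 21 independent observations.

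**Figure D1:**
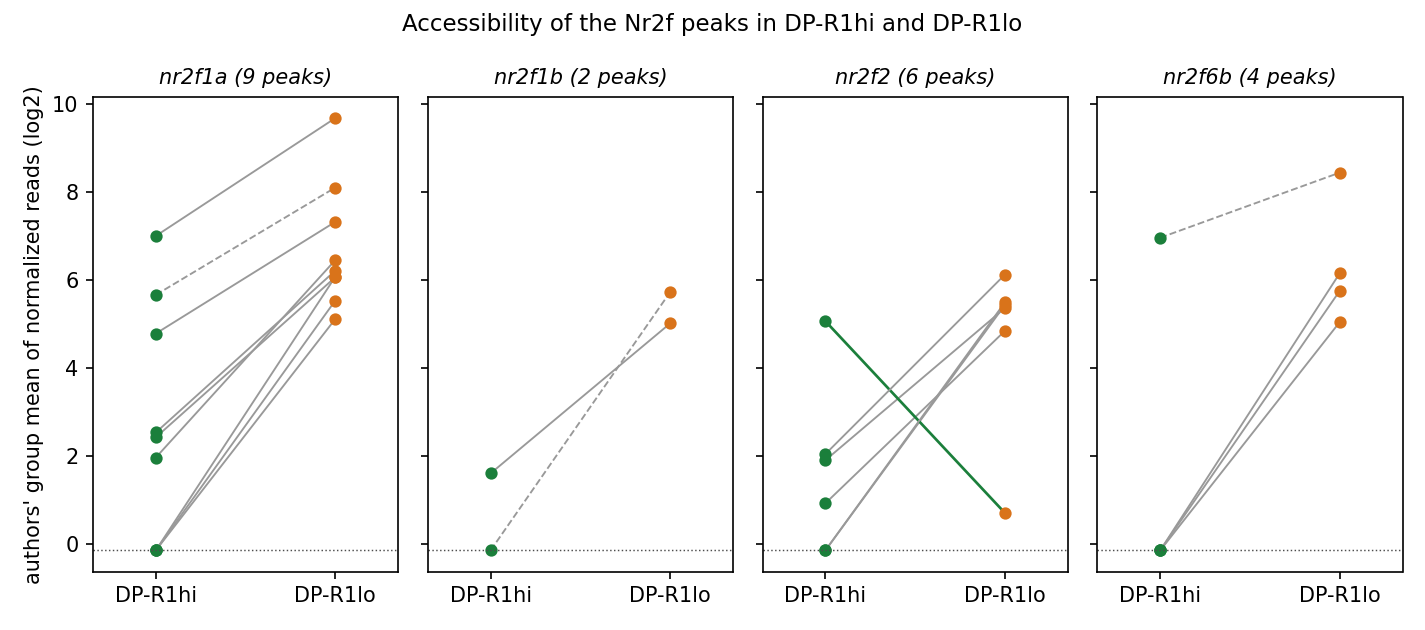
Each line joins the level of 1 peak in DP-R1hi (left, green points) with that in DP-R1lo (right, orange points), as the authors' mean of normalized reads on a log2 scale, in a panel for each gene. Dashed lines are promoter peaks, the dotted line is the lowest DP-R1hi level of -0.14, and the green line is the only peak more open in DP-R1hi, at nr2f2.

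At nr2f1a, which had most peaks of the family, all 9 were more open in DP-R1lo. The promoter peak on chromosome 5 (49092339 to 49093437 in GRCz10) spanned the start site and had a level of 5.67 in DP-R1hi and 8.11 in DP-R1lo. In normalized reads this is 50.9 and 276, or 5.43-fold lower in DP-R1hi. The promoter was thus open in both populations and less so in HE. Its DP-R1lo level was at or above that of 95.8% of all peaks more open in DP-R1lo.

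A group of 4 intergenic peaks followed between 9.72 and 17.02 kb past the nr2f1a start site. The first (49102693 to 49103289) had a level of 2.43 in DP-R1hi and 6.07 in DP-R1lo. The second (49103761 to 49104295), 472 bp further on, had 4.79 in DP-R1hi and 7.33 in DP-R1lo. The remaining ones (49106269 to 49106627 and 49110044 to 49110543) were at the lowest value in DP-R1hi, with 5.12 and 5.54 in DP-R1lo. Within this stretch the peaks with the lowest DP-R1lo levels were also those at the lowest value in DP-R1hi, whereas the strongest was 5.82-fold lower in DP-R1hi. With the promoter, these peaks formed a cluster of 5 peaks over 18204 bp with gaps of at most 10 kb. Along the genome, 15 of the 8048 such groups held at least as many peaks. The 8048 include single peaks, and 1127 groups held at least 2.

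Further along the chromosome, 3 peaks nearest to nr2f1a lay inside introns of the neighbouring gene fam172a, whose name in the RefSeq table is arb2a. The peak in intron 7 of 9 (49228653 to 49230013) lay 136062 bp from the nr2f1a start site. At 1360 bp it was the widest peak of the family and had the highest level in both populations. It had 129 normalized reads in DP-R1hi and 826 in DP-R1lo, a difference of -2.68 on the log2 scale. Its DP-R1lo level was at or above that of 99.7% of the peaks of the same direction. A second peak 3720 bp further on in the same intron (49233733 to 49234263) had 1.97 in DP-R1hi and 6.46 in DP-R1lo. The DP-R1hi level of this peak fits 1 combination of reads only, 1 in one library and 7 in the other, so that the libraries of this group were unequal there. The peak in intron 9 of 9 (49138438 to 49138890) was at the lowest value in DP-R1hi, with 6.08 in DP-R1lo. The single peak far upstream (48826090 to 48826464, 266994 bp before the start site) had 2.54 in DP-R1hi and 6.22 in DP-R1lo.

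The only peaks nearest to nr2f1b, the duplicate of nr2f1a on chromosome 10, lay at and just before its start site. The promoter peak (43950004 to 43950456) was at the lowest value in DP-R1hi and had 5.73, or 53.1 normalized reads, in DP-R1lo. The nr2f1b promoter thus differed from that of nr2f1a, which kept a level of 5.67 in DP-R1hi, and it was also the weaker of the pair in DP-R1lo. Its peak was also the narrower (452 bp, against 1098 bp), and levels were not divided by width. The second peak (43942661 to 43943006, 7516 bp upstream) had 1.61 in DP-R1hi and 5.02 in DP-R1lo. Its DP-R1hi level stands for 5 reads in one library and 2 in the other, and the difference of -3.41 is a 10.6-fold lower mean.

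The nr2f6b gene on chromosome 11 had 4 peaks within 13307 bp of its start site, all more open in DP-R1lo. Its mouse counterpart Nr2f6 is known as a repressor in T cells. The promoter peak (6118010 to 6118799) had 6.97 in DP-R1hi and 8.45 in DP-R1lo, and its difference of -1.48 was the smallest of the family. With 125 and 350 normalized reads, this promoter was well open in both populations. Right beside it, 782 bp further on, a peak in intron 1 of 4 (6119581 to 6120148) was at the lowest value in DP-R1hi and had 5.76 in DP-R1lo. The upstream peaks (6114105 to 6114439 and 6104821 to 6105393) were also at the lowest value in DP-R1hi, with 5.05 and 6.16 in DP-R1lo. The promoter peak thus kept signal in DP-R1hi that the listed peaks beside it did not. These were also weaker in DP-R1lo (5.05 to 6.16, against 8.45 at the promoter). Flanking sites with a smaller difference may have missed the authors' call and would not be listed. The 4 peaks formed a group with gaps of at most 10 kb, a size reached by 57 of 8048 groups, single peaks included.

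At nr2f2, the gene most closely tied to venous identity, no listed peak lay at the promoter or in an intron. All 6 peaks were intergenic on chromosome 18, from 42396 to 253095 bp away. Absence from the lists does not show equal accessibility at the promoter, because the lists hold only peaks that the authors called different, and a difference that missed their call would not be in them. The closest peak (23846240 to 23846645), 42396 bp past the start site, was the only Nr2f peak more open in DP-R1hi. It had a level of 5.07 in DP-R1hi and 0.71 in DP-R1lo, that is 33.6 and 1.64 normalized reads, a 20.5-fold higher mean in DP-R1hi. The DP-R1lo level stands for 3 reads in one library and 1 in the other.

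The other 5 nr2f2 peaks lay on either side of the gene and were all more open in DP-R1lo. The peak on the same side as the DP-R1hi one and nearest to it (23821006 to 23821458), 67606 bp past the start site, was at the lowest value in DP-R1hi and had 5.44 in DP-R1lo. Peaks with opposite differences were thus 24782 bp apart at this gene. Further out on that side, the peak at 233033 bp (23655671 to 23655940) had 0.93 in DP-R1hi and 4.85 in DP-R1lo, the lowest DP-R1lo level among the 20 peaks more open in DP-R1lo. The peak at 253095 bp (23635495 to 23635991) had 1.91 in DP-R1hi and 5.37 in DP-R1lo. In both of these, 1 of the DP-R1hi libraries was at 1 read, with 3 and 8 reads in the other. Upstream of the gene, the peak at 123314 bp (24011937 to 24012368) had 2.05 in DP-R1hi, from 4 and 5 reads, and 6.13 in DP-R1lo. The last (24103435 to 24103890, 214824 bp upstream) was at the lowest value in DP-R1hi and had 5.50 in DP-R1lo.

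**Figure D2:**
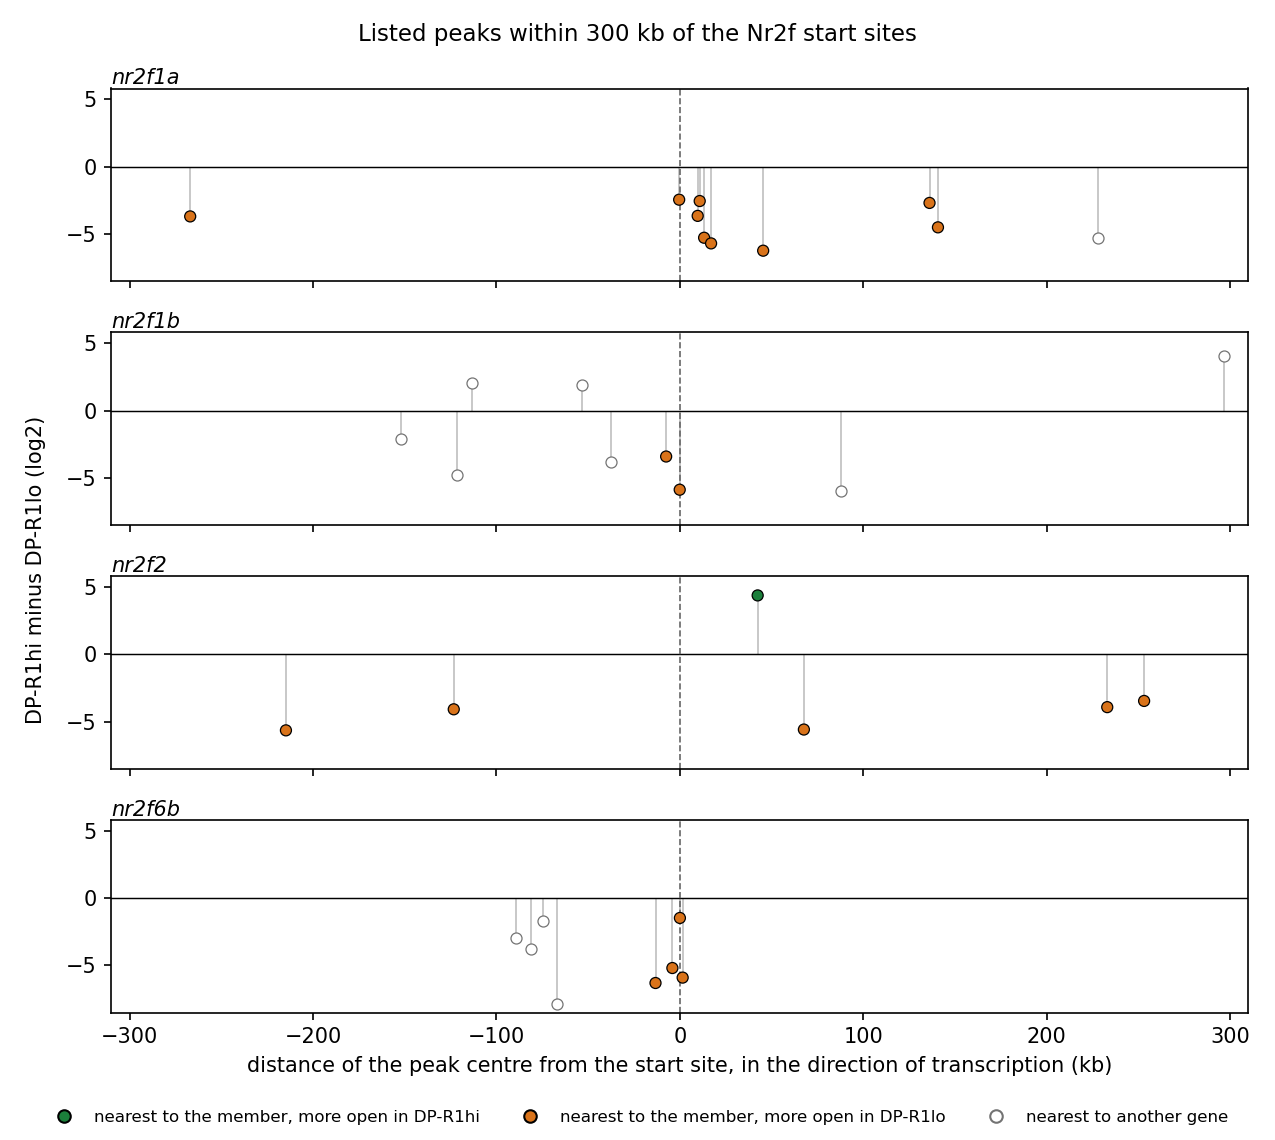
Listed peaks within 300 kb of the start sites of the 4 genes, by the distance of the peak centre from the start site in the direction of transcription (kb) and the difference DP-R1hi minus DP-R1lo (log2). Filled points are nearest to the named gene (green, more open in DP-R1hi, and orange, more open in DP-R1lo) and open points to another gene; nr2f6b and nr2f1b peaks crowd at the start site, whereas those of nr2f2 start at 42.4 kb.

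By the deposited annotation, 3 of the 21 peaks were at promoters, 4 in introns and 14 intergenic, with none in exons, UTRs or transcript ends. The shares of 14.3%, 19% and 66.7% stand beside 5.35%, 24.8% and 62.8% of all listed peaks. All 3 promoter peaks, at nr2f1a, nr2f1b and nr2f6b, were more open in DP-R1lo, as were 52% of all 506 promoter peaks. Of the 4 intronic peaks only that of nr2f6b was in the gene's own transcript. Within 50 kb of the start site lay 13 of the 21 peaks (61.9%), close to the 63.9% over all listed peaks.

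The members differed in how far their listed peaks lay from the start site. The median distance to the start site was 2796 bp at nr2f6b, 3818 bp at nr2f1b, 17022 bp at nr2f1a and 169069 bp at nr2f2. The farthest nr2f6b peak lay at 13307 bp and the closest nr2f2 peak at 42396 bp. How often the peaks of 2 genes are set apart in this way was not counted. Each peak was assigned to its nearest gene, so these distances also depend on how far off other genes lie. Within 300 kb of the start site, nr2f2 had 6 peaks of its own and 0 nearest to other genes. The counts were 9 and 1 at nr2f1a, 4 and 4 at nr2f6b, and 2 and 7 at nr2f1b. The median peak width was 455 bp over the Nr2f peaks and 481 bp over all listed peaks.

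Among the 20 peaks more open in DP-R1lo, those with the highest DP-R1lo levels also kept the most signal in DP-R1hi. A weak peak with a small difference may have missed the authors' call, and the lists can give this pattern by themselves. A level above 7 in DP-R1lo, a limit chosen after the values were seen, was reached by 4 peaks, the nr2f1a and nr2f6b promoters, 1 peak of the group past nr2f1a and the strongest fam172a intron peak. Their differences ran from -2.68 to -1.48, and none was at the lowest DP-R1hi value. The other 16 peaks had differences from -6.30 to -3.41, and 9 of them were at the lowest value. The DP-R1lo levels of these 9 (5.05 to 6.16) lay within those of all 16 (4.85 to 6.46). The DP-R1lo level thus did not set the 9 apart among the 16. Over the whole list of that direction, the median difference was -1.79 above a level of 7 and -4.44 at or below it. There, 3.4% of the 1146 peaks above this level were at the lowest DP-R1hi value, with differences down to -13.04, and 45.1% of the 4456 others. Levels were not divided by peak width. Of the Nr2f peaks above 7, the nr2f1a and nr2f6b promoters (1098 and 789 bp) and the fam172a intron peak (1360 bp) were also the widest of the family. The peak past nr2f1a was 534 bp wide.

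Of the 20 Nr2f peaks more open in DP-R1lo, 9 (45%) were at the lowest DP-R1hi value, against 36.6% of all 5602 peaks of that direction. They were 3 of 9 at nr2f1a, 1 of 2 at nr2f1b, 2 of 5 at nr2f2 and 3 of 4 at nr2f6b. In DP-R1lo, these 9 peaks held about 79.9 to 173 reads over both libraries, as estimated from the mean step of 0.414 normalized reads. At these 9 peaks the DP-R1hi level was the minimum, taken in the fit as 1 read in each library, which may be no true read. Beside it stood at least about 79.9 reads in DP-R1lo.

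**Figure D3:**
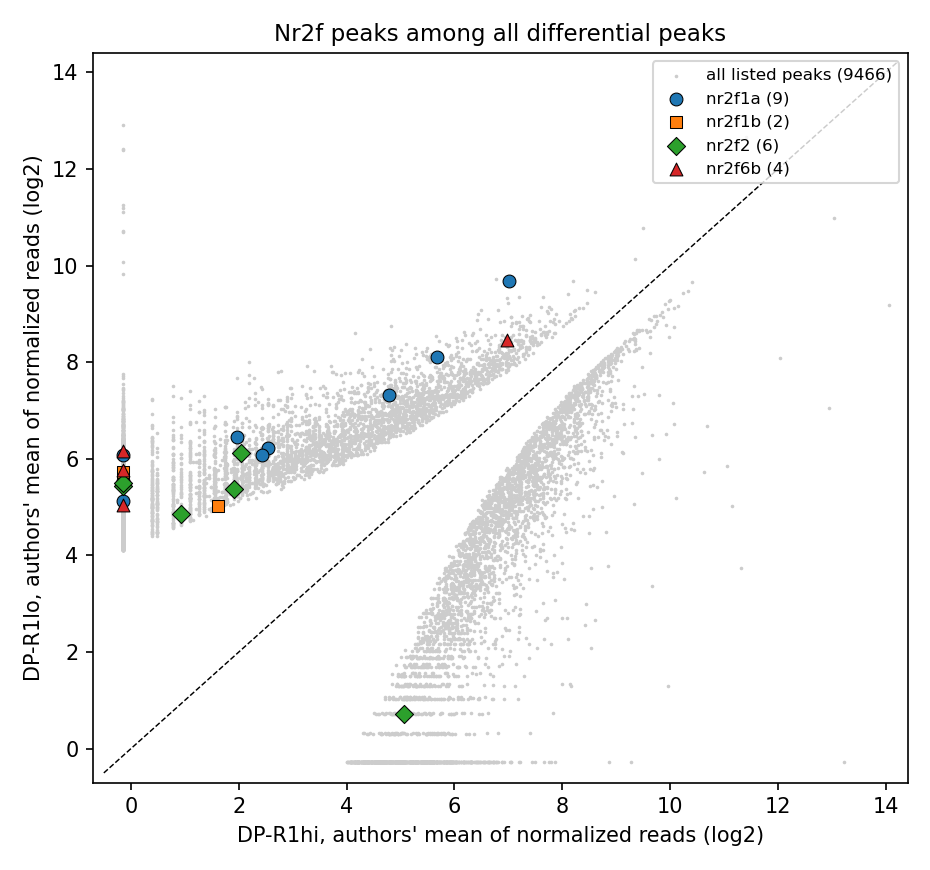
Level of each of the 9466 listed peaks in DP-R1hi (x axis) and DP-R1lo (y axis), both the authors' mean of normalized reads on a log2 scale, with the Nr2f peaks as coloured symbols by gene. Of the 21 Nr2f peaks, 20 lie above the dashed line of equal levels, 9 of them in the column at the lowest DP-R1hi level of -0.14, and 1 nr2f2 peak lies below it.

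Among 5023 genes with a listed peak, 42.6% had at least 2, as all 4 Nr2f genes with peaks did. A count of at least 4 was reached by 10.2% and one of at least 9 by 0.378% (19 genes), so that nr2f1a was among the genes with most differential peaks. Such a count also depends on the length of the stretch in which a gene's start site is the nearest. Of the 9 nr2f1a peaks, 3 lay in introns of fam172a. In 5 of these 19 genes, nr2f1a included, all peaks were more open in DP-R1lo. For genes with at least 4 peaks this held for 28.2% of 510, among them nr2f1a and nr2f6b. In direction and median difference, the genes most like nr2f1a among 261 genes with at least 5 peaks were zgc:158291 (6 of 6 peaks more open in DP-R1lo, median -3.67), cirbpb (5 of 5, -3.66) and eno1a (7 of 7, -3.74), beside -3.68 for nr2f1a. This likeness rests on 2 group means per peak, and 64 of the 261 genes had all peaks in DP-R1lo.

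Other genes of vein, artery and nuclear receptor biology were set beside the family as lists. Each peak was counted for its nearest gene whatever the distance, which reached 458754 bp at nrp2b, 511712 bp at efnb2a and 631800 bp at hnf4b. How many genes of a list had peaks is given without the share over all annotated genes, which was not counted. Of 15 venous and lymphatic endothelial genes, 10 had listed peaks, with 6 peaks more open in DP-R1hi and 28 in DP-R1lo (82.4%) and a median difference of -4.04. All peaks of flt4 (4), which encodes the receptor of the lymphatic growth factor Vegfc, were more open in DP-R1lo, with differences from -7.81 to -3.99. The same held for stab1 (3), a scavenger receptor of veins, with -4.33 to -2.85, and for prox1a (5), the lymphatic master regulator, with -5.51 to -0.99. Peaks of both directions were found at aplnra (1 more open in DP-R1hi and 2 in DP-R1lo), nrp2a (1 and 2), nrp2b (1 and 4) and stab2 (1 and 2). At ephb4a, one of the zebrafish copies of the venous ephrin receptor gene, 2 peaks were more open in DP-R1hi (1.39 and 3.09). They lay 70865 and 143145 bp upstream of its start site, inside an annotated intron. Both were assigned to ephb4a by distance alone. The other copy, ephb4b, had 3 peaks more open in DP-R1lo (-4.86 to -1.22), within 10945 bp of its start site.

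Of the 19 arterial genes, 16 had listed peaks, with 6 more open in DP-R1hi and 37 in DP-R1lo (86.0%) and a median difference of -2.98. All peaks were more open in DP-R1lo at 11 of these genes, and 4 had peaks of both directions. The Notch receptor gene notch3 had 8 of 8 peaks more open in DP-R1lo (-6.06 to -2.12), the Notch ligand gene dll4 6 of 6 (-5.40 to -1.04), and hey1, a Notch target, 4 of 4 (-4.16 to -2.49). At nrp1a, whose mouse counterpart is repressed by COUP-TFII, 3 of 3 peaks were more open in DP-R1lo (-3.50 to -1.10). By contrast hey2, another Notch target, had 2 peaks more open in DP-R1hi and 2 in DP-R1lo, with a median difference of 0.10, and the only peak of notch1b was more open in DP-R1hi (4.19). At efnb2a, which encodes the arterial ephrin ligand, 1 peak was more open in DP-R1hi and 3 in DP-R1lo, and foxc1a (1 and 2) and nrp1b (1 and 1) were also mixed. Peaks more open in DP-R1lo were therefore the majority at both venous and arterial genes, and the direction at the Nr2f genes was not tested as particular to the venous side. The pan-endothelial markers kdrl, cdh5, fli1a and pecam1 had 0 peaks more open in DP-R1hi and 10 in DP-R1lo.

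Of 16 related nuclear receptor genes and partners, 9 had listed peaks, with 20 more open in DP-R1hi and 13 in DP-R1lo (39.4%) and a median difference of 1.81. The receptor genes and the cofactor genes differed in their counts, with 10 peaks more open in DP-R1hi and 11 in DP-R1lo at 6 receptor genes, and 10 and 2 at 3 cofactor genes, a split made after the values were seen. The cofactor genes of the Fog family, whose mammalian products bind GATA factors and COUP-TFII, had 3 of 3 peaks more open in DP-R1hi at zfpm1 (1.80 to 2.84), 5 of 6 at zfpm2a and 2 of 3 at zfpm2b. The receptor gene hnf4b had 5 peaks in DP-R1hi and 1 in DP-R1lo, and its paralogue hnf4g 2 and 4, with a median difference of -2.79. These peaks lay 50569 to 631800 bp from the hnf4b start site and 14025 to 363806 bp from that of hnf4g. Among the retinoid X receptor genes, rxraa had 1 peak in DP-R1hi and 2 in DP-R1lo, rxrbb 2 and 1, rxrga 0 and 2, and rxrab 0 and 1. No listed peak was nearest to nr2c1, nr2c2, nr2e1, nr2e3, hnf4a, rxrba or rxrgb.

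**Figure D4:**
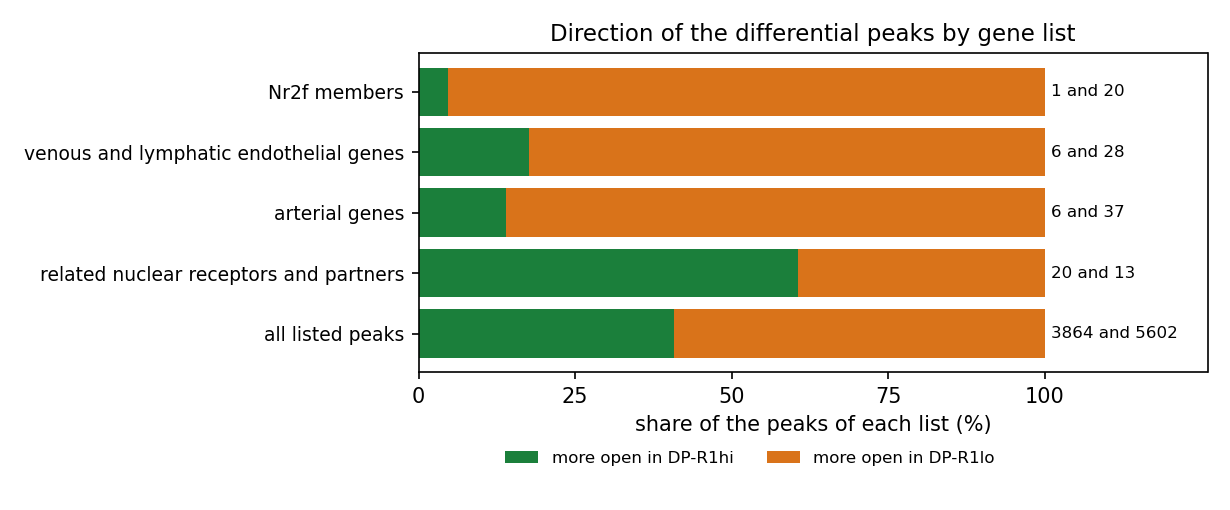
Share of the listed peaks more open in DP-R1hi (green) and in DP-R1lo (orange) for the Nr2f genes, the lists set beside them and all listed peaks, with both counts at the right. Each peak was assigned to its nearest gene, whatever the distance. The Nr2f genes had 1 and 20 peaks, the venous and lymphatic genes 6 and 28, the arterial genes 6 and 37, the related nuclear receptors and partners 20 and 13, and all listed peaks 3864 and 5602.

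The markers of HE had 6 peaks more open in DP-R1hi, at myb, gfi1aa and gfi1ab, and 1 in DP-R1lo, at tal1, whereas runx1, gata2b and dnmt3bb.1 had none. For the arterial markers dll4, hey2, efnb2a and dlc the counts were 3 and 12. Neural and mesenchymal markers had 2 peaks in DP-R1hi and 4 in DP-R1lo, and cdh17, a kidney marker, had none. The lists hold peaks that differ and no others, so that levels of other cell types could not be compared. In bulk samples, fewer open cells and less open chromatin per cell cannot be told apart.

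Neither nr2f5 nor nr2f6a was the nearest gene of any listed peak. In zebrafish, nr2f5 acts with nr2f1a and nr2f2 in patterning of the upper jaw, and nr2f6a is the duplicate of nr2f6b. Among the 3 protein-coding neighbours on each side in the RefSeq table, 1 of 6 had listed peaks at each gene, namely bola1 beside nr2f5 (1 peak more open in DP-R1hi and 2 in DP-R1lo) and kcnn1a near nr2f6a (1 peak, in DP-R1lo). The distance of these peaks from nr2f5 and nr2f6a was not measured, as start sites were derived only for genes with a listed peak. The duplicates nr2f6a and nr2f6b stood at 0 and 4 listed peaks, and nr2f1b and nr2f1a at 2 and 9.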

How the data were processed

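ATAC-seq reads had been trimmed by the authors with Trimmomatic 0.32, aligned to the Zv10 assembly (GRCz10) with BWA 0.7.12 and counted with featureCounts. Peaks were called against genomic DNA. DP-R1hi and DP-R1lo were then compared in DiffBind with edgeR, after 1 of 3 replicates of each group had been left out, and peaks were annotated with HOMER and kept above an absolute log2 fold change of 0.7. The 2 deposited lists hold log2 group means of normalized read counts, without a header, and distances to the nearest TSS in bp. The column of each group was read from the direction each list is named for. The deposited column of the authors' log2 fold change was not used, and differences were recomputed from the group means. Columns of per-sample values left unused numbered 0.

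Coordinates are given as deposited, and whether starts count from 0 or 1 is not given in the sources used here. Start sites and strands were derived from peak centres and signed distances, which agreed for all peaks of a gene. Steps between low values were fitted on a grid to the 16 lowest levels of each group, with the lowest taken as 1 read in each library. Read combinations are given where only 1 combination fitted under any of the pairs of steps that matched those levels. For the nr2f1a levels of 2.43 and 2.54 in DP-R1hi, 2 combinations fitted and both are given. Such a combination need not fit under every pair. The reader was tested on simulated rows. Values were computed in Python 3.11.15 with pandas 2.3.3 and numpy 2.4.6, and plots were drawn with matplotlib 3.10.9. Gene neighbours and current names came from RefSeq (GRCz12tu), used for names and order only. No genome sequence was used, so that no sequence is shown and no motif search was made.

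The members, gene lists and alternatives were chosen with earlier results of these data known. All 6 members are named with every peak. Genes like nr2f1a are the 3 closest by share of peaks more open in DP-R1lo, then by median difference, among genes with at least 5 peaks. From the gene lists, genes with at least 3 peaks or a peak within 1 kb of the start site could be named with values, and the other genes named there were chosen after their values were seen. Alternatives were a stricter difference, a limit on distance, merged peaks, peaks in another gene left out, peaks at the lowest value left out and each member left out.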

Additional observations from a re-analysis of the deposited data

How the results depend on the processing

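No paired analysis was possible because only 1 mean per population is listed for each peak. Leaving out each replicate in turn was not possible on such means either, and the spread between replicates is unknown for every difference given.

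Within 50 kb of the start site lay the 1 Nr2f peak more open in DP-R1hi and 12 of the 20 more open in DP-R1lo, and the median difference moved to -5.19. Of these 13 peaks, 7 were at the lowest DP-R1hi value, so that this median was set by that value. Without the peaks at the lowest value, the median difference over the Nr2f peaks was -3.44, against -1.2 over all listed peaks treated alike. Among peaks more open in DP-R1lo alone, these medians were -3.46 and -2.83. Without nr2f1a, 1 peak was more open in DP-R1hi and 11 in DP-R1lo. Counting all listed peaks within 50 kb of the 4 start sites, whatever their nearest gene, an alternative chosen after seeing the data, gave 1 in DP-R1hi and 13 in DP-R1lo. Fewer peaks enter each of these counts by construction. Without nr2f2, no peak was more open in DP-R1hi and 15 were in DP-R1lo. Under the other alternatives the counts of peaks more open in DP-R1lo stayed within 1.5 times, as did those at the lowest value where computed. The median difference was negative wherever it was computed. With a member left out, only the counts by direction were computed.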

Other observations

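Some Nr2f duplicates lie near duplicates of other genes, and the listed peaks of the plvap and arrdc3 pairs are set beside theirs here. In the RefSeq table, plvapb, named vsg1 in the lists and known as a marker of fenestrated endothelium, lies near nr2f6b, and plvapa lies next to nr2f6a. The lists held 3 peaks nearest to vsg1, all more open in DP-R1lo, and none nearest to plvapa, as they held 4 for nr2f6b and none for nr2f6a. The vsg1 promoter peak on chromosome 11 (6050899 to 6052083) was at the lowest value in DP-R1hi and had 7.71 in DP-R1lo. At the other pair, arrdc3a near nr2f1a had 2 peaks more open in DP-R1lo, and arrdc3b beside nr2f1b had 1. These genes were picked after their peaks had been seen, and how often duplicates differ in this way was not counted. The vsg1 and nr2f6b peaks are not separate observations either, as they belong to 11 listed peaks in a row more open in DP-R1lo.

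Consecutive listed peaks of 1 direction extended beyond the Nr2f genes. On chromosome 5, 15 peaks in a row over 1554560 bp were more open in DP-R1lo, 9 of them nearest to nr2f1a. Along the genome, 22 of 3638 runs of either direction, those of 1 peak included, were at least as long. The run on chromosome 11 held 11 peaks, 4 of them nearest to nr2f6b. At nr2f1b the row was 4 peaks long. Within 300 kb of its start site, 3 peaks nearest to other genes were more open in DP-R1hi and 4 in DP-R1lo.

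At most low levels above the minimum, 1 of the libraries was at 1 read. Among the 15 lowest DP-R1hi levels above the minimum, 637 of 663 peaks (96.1%) had values that need 1 library at 1 read, with all further reads in the other, and 26 had both libraries above 1 read. The 663 include 112 peaks at 0.4 and 62 at 0.49, which stand for 2 reads in one library and 1 in the other. At these levels no other split was possible. In DP-R1lo the share was 93.6% of 345 peaks. At the Nr2f genes, 3 of the 5 DP-R1hi levels with 1 fitting combination above the minimum were of this kind. These levels run to 2.05, whereas the share of 96.1% covers levels up to 1.56. The nr2f1a level of 2.43 (49102693 to 49103289) is not among the 5. It fits 1 and 10 or 12 and 1 reads, so that 1 library was at 1 read there too. The nr2f1a level of 2.54 (48826090 to 48826464) is not among the 5 either. It fits 2 and 10 or 13 and 1 reads, so that neither library need have been at 1 read. Why reads fell so unevenly between the libraries was not tested.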
